A study of Mus musculus with 16 samples.

Results

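The Speer genes are a multicopy family of rodents. The data were read at 8 members, Speer2, Speer3, Speer4a, Speer4b, Speer4c, Speer4d, Speer4e, and Speer4f1, out of 21942 genes that were counted (all protein-coding genes of GENCODE vM21 and every gene with a Speer symbol). The members are a list of symbols and were not picked by a measured value, but earlier results of these data were known when they were chosen. Each gene was counted over its body and 5 kb on either side, in the mm10 assembly. A fragment was assigned by its midpoint, and fragments with the same coordinates in a library were taken as 1 distinct fragment.

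SPEER proteins are spermatogenesis-associated and rich in glutamate, and their genes are expressed in the testis, in haploid germ cells. The genes arose by repeated duplication and resemble part of Dlg5, a gene for a scaffold protein. H3K4me3 is a histone mark found at active promoters, H3K27me3 is deposited by Polycomb at repressed developmental genes, and H3K9me3 marks heterochromatin, including repeats and recently duplicated gene clusters.

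Haploid spermatids were sorted with Hoechst and propidium iodide from the testes of 2-month-old C57BL/6J-backcrossed males. KO males were hemizygous for mutations in all 3 X-linked genes of the histone variant H2A.B, made by CRISPR/Cas9 in 1 line, and WT males were their siblings. AutoCUT&RUN, in which an antibody tethers micrococcal nuclease to chromatin and the released fragments are sequenced, was done for H3K4me3, H3K27me3, and H3K9me3, with a rabbit IgG as control. The 4 targets, 2 genotypes, and 2 replicates (sibling pairs) gave 16 libraries, with 784360 to 3394830 distinct fragments for H3K4me3, 200457 to 3806026 for H3K27me3, 5009169 to 6746382 for H3K9me3, and 159611 to 270598 for IgG.

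Of the 6 spermatid markers examined, all had H3K4me3 fragments within 1 kb of their start sites, and their summed level was 71.2 to 82.5 fragments per 1000000 in the KO libraries and 61.2 to 71.5 in the WT libraries. The sum was 0 to 3.21 for 3 Sertoli cell markers, 0 to 0.917 for 3 Leydig cell markers, 1.18 to 7.65 for 3 spermatogonial markers, and 0 to 1.27 for 2 blood and macrophage markers. Cyp11a1, which defines Leydig cells, had 0 fragments in all 4 H3K4me3 libraries. The start sites of protein-coding genes had a median of 2.75 to 3.82 in these libraries. The spermatogonial marker Kit reached above it in its highest library (0.884 to 5.10, 14 fragments), and the spermatid marker Prm1 was below it (0.742 to 2.55). The part of other germ cells in the results was not tested.

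Of the members, 7 lie on chromosome 5, and Speer2 lies alone on chromosome 16. On chromosome 5 they run, by start position in mm10, from Speer3 (13791619 to 13796820, + strand) through Speer4e (14933221 to 14938429, - strand), Speer4d (15619064 to 15623864, + strand), Speer4c (15709501 to 15714271, - strand), Speer4f1 (17476098 to 17480936, + strand), and Speer4a (26032846 to 26039558, - strand) to Speer4b (27495639 to 27501438, - strand), a span of 13.71 Mb. Speer2 occupies 69856874 to 69863744 on the - strand of chromosome 16. All 8 are annotated as protein coding, with 5 exons in the longest transcript (6 in Speer2) and gene bodies of 4771 to 6871 bp.
Other annotated genes fall in 4 of the windows. Speer4c lies inside the antisense gene Speer4cos, Speer4d shares its window with the antisense gene Gm21847, Speer3 with the lincRNA 4930568A13Rik, and Speer4b with the large gene Dpp6. Fragments carry no strand, so a gene and its antisense partner could not be told apart.

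The promoters of the family are shown because they display letters shared by the chromosome 5 members and the high identity of single copies. RefSeq (GRCm38.p6) gives a promoter for each of the 8 members. Each line below is 117 bases, 5′ to 3′ on the gene's strand, aligned on the shared letters gttctt. Capitals mark TGATGTCA or its reverse complement TGACATCA, letters that resemble the cAMP response element TGACGTCA, and in Speer2 they mark TGACG, which is contained in that element.
Speer2 (chr16:69863788-69863904, - strand): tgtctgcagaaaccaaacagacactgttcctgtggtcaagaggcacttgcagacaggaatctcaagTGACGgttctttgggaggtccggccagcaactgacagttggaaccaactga
Speer3 (chr5:13791501-13791617, + strand): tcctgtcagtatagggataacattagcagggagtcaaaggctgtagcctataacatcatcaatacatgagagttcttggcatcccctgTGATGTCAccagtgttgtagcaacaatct
Speer4e (chr5:14938448-14938564, - strand): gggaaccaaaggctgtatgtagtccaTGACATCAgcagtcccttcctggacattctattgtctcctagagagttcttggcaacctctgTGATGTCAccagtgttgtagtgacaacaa
Speer4d (chr5:15618975-15619091, + strand): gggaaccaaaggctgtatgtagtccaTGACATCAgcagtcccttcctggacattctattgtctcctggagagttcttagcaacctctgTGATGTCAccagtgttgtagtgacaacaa
Speer4c (chr5:15714244-15714360, - strand): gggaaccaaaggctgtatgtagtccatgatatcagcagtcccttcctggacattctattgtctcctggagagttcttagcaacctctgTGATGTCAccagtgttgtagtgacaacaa
Speer4f1 (chr5:17475969-17476085, + strand): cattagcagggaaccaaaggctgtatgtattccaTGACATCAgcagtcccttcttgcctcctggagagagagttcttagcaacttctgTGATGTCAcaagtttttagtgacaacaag
Speer4a (chr5:26039525-26039641, - strand): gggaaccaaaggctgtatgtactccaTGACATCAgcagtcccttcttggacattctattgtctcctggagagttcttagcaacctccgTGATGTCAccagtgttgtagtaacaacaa
Speer4b (chr5:27501409-27501525, - strand): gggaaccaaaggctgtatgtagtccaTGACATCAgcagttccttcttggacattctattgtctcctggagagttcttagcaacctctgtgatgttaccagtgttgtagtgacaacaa
Every motif was searched on both strands. TGATGTCA was present in 7 of the 8 promoters, all but that of Speer2, and in 3.62% of the 32851 RefSeq promoters of the same length (300 bases). The letters were chosen after the sequences had been seen. On the gene's strand, TGATGTCA was present in 6 members and TGACATCA in 5, with both in 4. The full element TGACGTCA was found in 0 of 8 members and in 1.79% of all promoters, and TATAAA in 0 of 8 and 13.6%. The shorter TGACG, marked in Speer2, was found in 1 of 8 members and in 20.8% of all promoters. CCAAT was present in 7 of 8 members, against 37.4% of all promoters. The members had 0 to 3 CG dinucleotides per promoter, where the median of all promoters was 7, and a GC content of 44.0% to 53.0% against a median of 52.7%. These are matches of letters and say nothing of binding.

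Some copies are nearly the same sequence over the whole gene. Identity was the share of identical bases over the whole alignment, with gaps counted as differences. It was 98.2% between the bodies of Speer4d and Speer4c, 88.5% between Speer4e and Speer4d, and 88.1% between Speer4e and Speer4c. The body of Speer4e is longer (5209 bp) than those of Speer4d (4801 bp) and Speer4c (4771 bp), and this lowers its values. In the 300-base promoters, identity was 98.7% between Speer4e and Speer4c and 94.1% between Speer4a and Speer4b. It was 77.0% between Speer4e and Speer4d, where TGATGTCA begins 1 and 36 bases before the annotated start, so the promoters are offset. Speer2 was the most distant member, with 43.0% to 64.4% identity to the other bodies and 47.9% to 52.4% to the other promoters. Speer4c, Speer4d, and Speer4e are treated below as 1 subgroup of closely related copies.
A read can be placed with certainty only where its sequence occurs once in the genome. Over the windows, the share of positions whose 25 bases occur once was 12.9% in Speer4d, 14.1% in Speer4e, and 20.4% in both Speer4c and Speer4a, and it was 41.9% to 48.1% in Speer2, Speer3, Speer4b, and Speer4f1. In the body of Speer4c it was 5.52%, and the median position there had 10 copies. Of the H3K4me3 fragments counted at Speer4c, only 2.51% had at least 1 end whose 25 bases are unique. This share was 5.06% at Speer4d, 5.48% at Speer4e, 15.9% at Speer4a, 34.3% at Speer4b, 38.6% at Speer4f1, 59.3% at Speer3, and 69.3% at Speer2. Counts at Speer4c, Speer4d, and Speer4e are therefore uncertain for each copy and are better read as values of the subgroup.

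All 8 genes had a far higher H3K4me3 density over their windows than most genes in every library. Levels are given as density, the number of distinct fragments per kb of window per 1000000 distinct fragments of the library. Values are given with replicate 1 before replicate 2. The H3K4me3 density at Speer4c was 61.0 and 38.2 in KO and 58.7 and 47.2 in WT. At Speer4d it was 53.8 and 32.2 in KO and 56.4 and 45.1 in WT. At Speer4e it was 50.1 and 30.6 in KO and 49.0 and 39.1 in WT. In all 3 genes KO replicate 2 was the lowest library, and the genotypes overlapped.
In distinct fragments, the remaining 5 members lay lower and close together. The density was 10.5 and 7.77 in KO and 10.9 and 9.14 in WT at Speer4b. It was 9.32 and 7.09 in KO and 9.39 and 8.84 in WT at Speer3. It was 8.57 and 6.33 in KO and 9.38 and 9.08 in WT at Speer4a, where both KO libraries were below both WT libraries.
Speer4f1 had 9.80 and 7.64 in KO and 7.30 and 8.06 in WT. Speer2 had 7.12 and 6.04 in KO and 6.05 and 7.31 in WT. The genotypes overlapped at both genes. Across all protein-coding genes, the median density was 0.429 to 0.506 and the 99th percentile 7.16 to 8.16 in the 4 libraries. The lowest percentile of the subgroup among protein-coding genes was 99.9, at Speer4e, and the lowest value of any member, that of Speer2 in KO replicate 2, was above 97.4%. These ranks are among genes of every length, and density over a window depends on its length. Ranks among genes with windows of like length were not computed. Within 1 kb of the start site, the density at Speer2 was 7.01 to 13.3, and the median of protein-coding genes was 1.37 to 1.91.

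**Figure D1:**
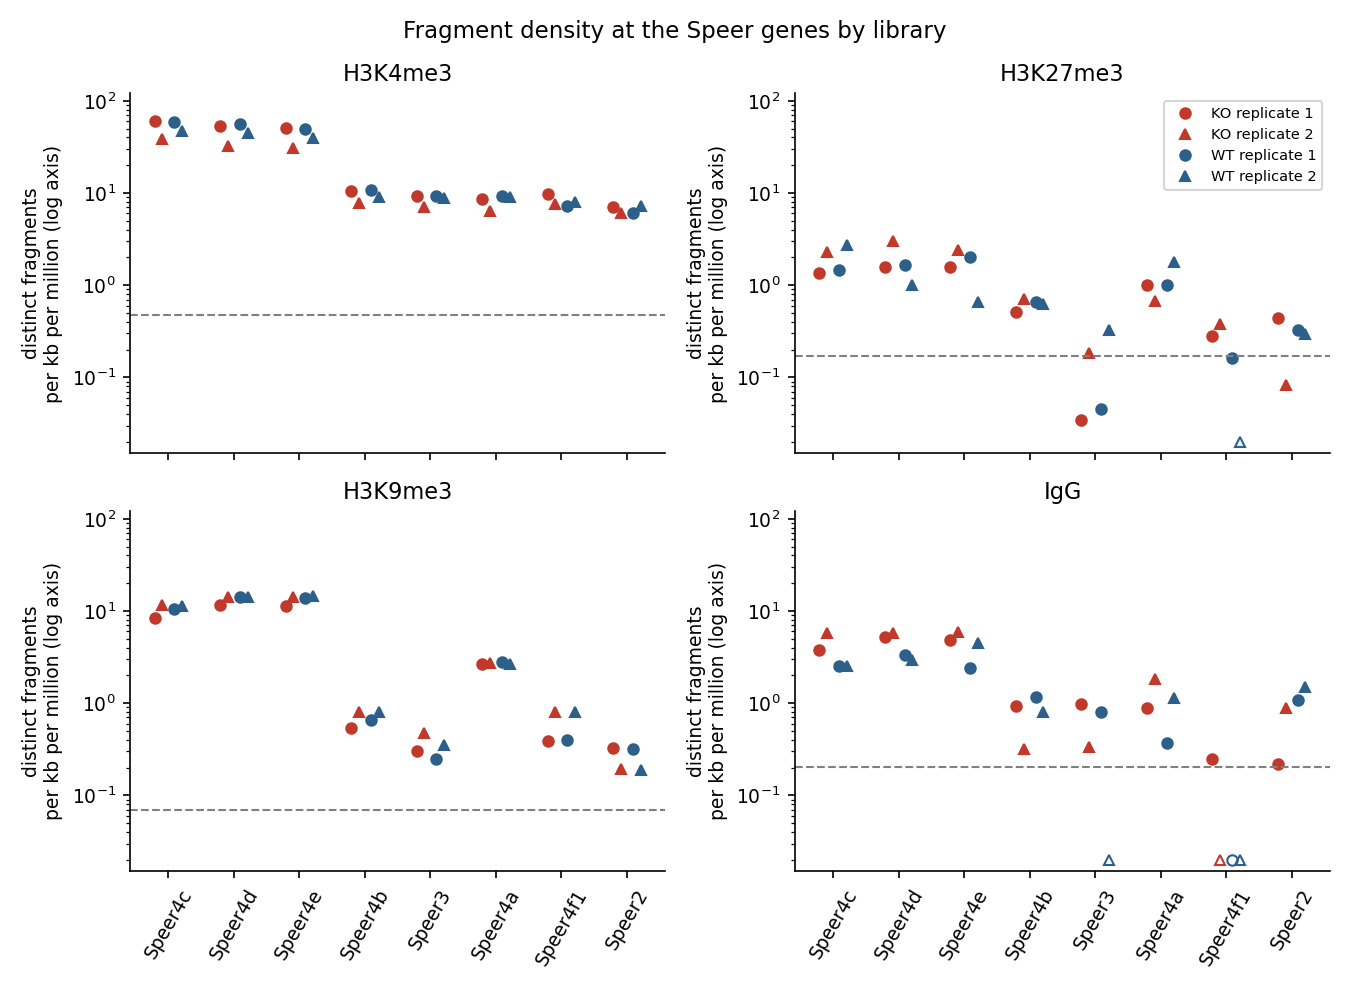
Distinct fragments per kb per 1000000 (log axis) in the window of each Speer gene (x axis), with 1 point per library, KO in red, WT in blue, circles for replicate 1, and triangles for replicate 2. Open symbols at the bottom are libraries with 0 fragments, and the dashed line is the median over the 4 libraries of the median density of all protein-coding genes. Speer4c, Speer4d, and Speer4e stand above the other members for H3K4me3 (30.6 to 61.0 against 6.04 to 10.9), H3K9me3, and IgG, and KO and WT points intermix for the 3 marks at most genes.

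In order of the mean over 4 libraries (± SD, n = 4), the H3K4me3 density was 51.3 ± 10.6 at Speer4c, 46.9 ± 10.9 at Speer4d, 42.2 ± 9.16 at Speer4e, 9.57 ± 1.41 at Speer4b, 8.66 ± 1.07 at Speer3, 8.34 ± 1.38 at Speer4a, 8.20 ± 1.11 at Speer4f1, and 6.63 ± 0.682 at Speer2. Neighbors in this order differed by less than their pooled SD, except at 2 steps, from Speer4e to Speer4b and from Speer4f1 to Speer2. Only at the step from Speer4e to Speer4b did the ranges of the 4 libraries not overlap. The SD includes shifts that all members of a library share. Within libraries, the first-named gene was higher in 4 of 4 from Speer4c to Speer4d, Speer4d to Speer4e, Speer4b to Speer3, and Speer4f1 to Speer2, in 3 of 4 from Speer3 to Speer4a, and in 2 of 4 from Speer4a to Speer4f1.

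The step between the subgroup and the other members became smaller when only uniquely placed fragments were used. Counting fragments with a unique end, per kb of body positions whose 25 bases are unique, the H3K4me3 level per 1000000 distinct fragments was 49.2 ± 15.2 (SD, n = 4) at Speer4d, 44.5 ± 2.75 at Speer4c, and 32.8 ± 3.44 at Speer4e. Counted in this way it was 23.4 ± 1.82 at Speer4b, 21.8 ± 3.66 at Speer3, 21.3 ± 3.95 at Speer4f1, 14.1 ± 1.23 at Speer2, and 10.7 ± 4.67 at Speer4a. A fragment was counted if either end was unique, so the level can run higher where unique positions are few, as in the subgroup. The subgroup was the highest in the bodies, where the value of Speer4c rests on 89 fragments in 0.263 kb. Over the whole windows it was not. There the level from unique ends was 16.1 ± 3.65 at Speer4d and 15.2 ± 0.680 at Speer4e, but 6.06 ± 1.09 at Speer4c, which was below Speer3 (10.8), Speer2 (10.5), Speer4f1 (7.24), and Speer4b (6.58) and above Speer4a (5.30). At Speer4c only 0.263 of 3.01 kb of unique positions lie in the body, against 3.67 of 7.20 kb at Speer2. The window values from unique ends thus weigh body and flanks differently at each member, and their order depends on this. With all fragments, the body densities were 141 ± 33.4 at Speer4c, 129 ± 35.5 at Speer4d, and 106 ± 27.5 at Speer4e, against 10.5 to 21.8 at the other 5.

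H3K4me3 fragments were not limited to the start sites but covered the gene bodies. The body was denser than the flanks at every member in 4 of 4 libraries, and the ratio of the mean body density to the mean flank density was 17.2 at Speer4d, 16.3 at Speer4c, 11.9 at Speer4e, and 10.5 at Speer4a. It was 8.80 at Speer4b, 6.72 at Speer4f1, 2.83 at Speer3, and 2.65 at Speer2. On counts summed over the 4 libraries the ratio was 2.57 to 14.3 at the members, and its median over 925 genes with windows of like length and at least 50 H3K4me3 fragments was 1.70. The IgG control was also denser in the body than in the flanks at most members. Its ratio of the means was 4.64 at Speer2, 4.34 at Speer3, 3.96 at Speer4c, and 2.70 at Speer4b. It was 2.48 at Speer4d, 2.04 at Speer4e, and 1.04 at Speer4a. At Speer2 and Speer3 the IgG ratio was above that of H3K4me3, from 11 and 7 IgG fragments in the windows. How much of the body excess belongs to the mark was not tested.
In bins of 500 bp, the mean H3K4me3 density was highest 1250 bp after the start site at Speer4c (225 fragments per kb per 1000000), 1750 bp at Speer4d (246), and 2250 bp at Speer4e (182). It was highest at 1250 bp at Speer4a (56.1) and Speer3 (23.5), at 2250 bp at Speer4f1 (32.6) and Speer2 (19.9), and at 250 bp at Speer4b (54.6). Between 19.8% (Speer2) and 35.7% (Speer4b) of the H3K4me3 fragments of a window lay within 1 kb of the start site, and the median of the 925 genes was 31.8%.

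**Figure D2:**
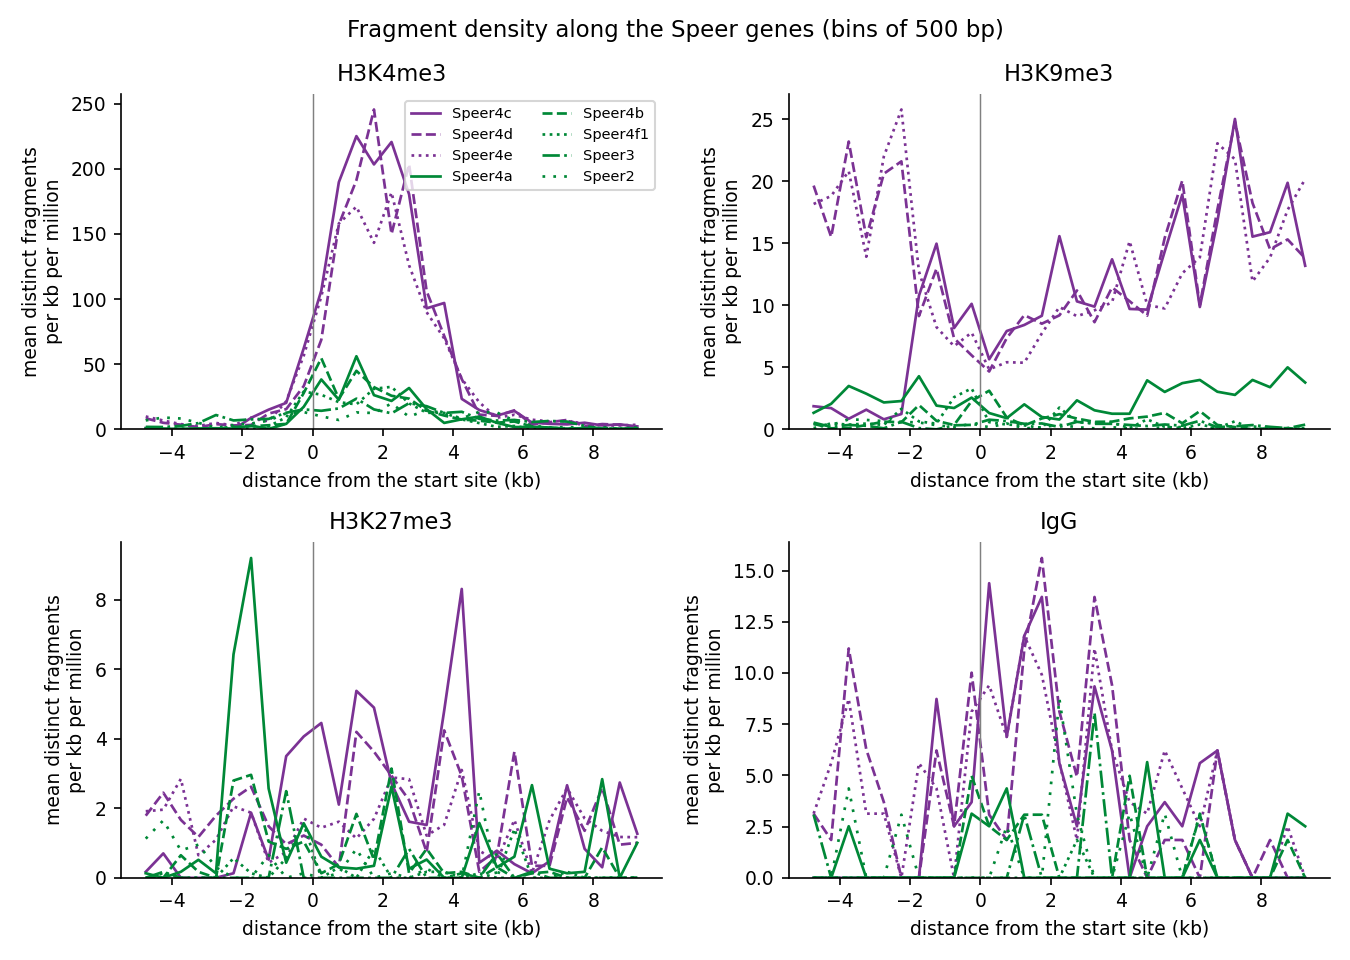
Mean density over the 4 libraries of each target (distinct fragments per kb per 1000000, bins of 500 bp) against the distance from the annotated start site in kb, along the gene's strand. Purple lines are Speer4c, Speer4d, and Speer4e, and green lines are the other 5 members. H3K4me3 was highest inside the genes, with 225 at Speer4c and 246 at Speer4d, and the vertical scales differ between panels.

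H3K9me3 was highest at the subgroup and lower at the other members, which still lay above most genes. At Speer4e the density was 11.5 and 14.1 in KO and 14.0 and 14.7 in WT. At Speer4d it was 11.6 and 14.1 in KO and 14.2 and 14.3 in WT. At Speer4c it was 8.35 and 11.5 in KO and 10.6 and 11.4 in WT. KO replicate 1 was the lowest library at all 3 genes, and both KO libraries were below both WT libraries only at Speer4d.
Speer4a had 2.67 and 2.72 in KO and 2.78 and 2.66 in WT. The other members had mean densities of 0.702 ± 0.125 (Speer4b), 0.597 ± 0.237 (Speer4f1), 0.345 ± 0.0985 (Speer3), and 0.256 ± 0.0756 (Speer2; SD, n = 4). The median of all protein-coding genes was 0.0429 to 0.102, and the 99th percentile was 2.75 to 3.07. The lowest percentile among these genes was 98.7 at Speer4a, 90.1 at Speer4b, 88.3 at Speer4f1, 84.7 at Speer3, and 78.2 at Speer2. In the order of the means, the ranges of neighbors did not overlap from Speer4d to Speer4c, from Speer4c to Speer4a, and from Speer4a to Speer4b.

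At Speer4e and Speer4d, H3K9me3 was denser in the flanks than in the body. The flanks had a mean of 16.1 ± 1.38 against 8.73 ± 1.84 at Speer4e and 15.8 ± 1.12 against 8.83 ± 2.19 at Speer4d (SD, n = 4), and this held in 4 of 4 libraries at both genes. At Speer4c the flanks had 10.8 ± 0.985 and the body 9.81 ± 2.65. Upstream of the start sites the copies differed. Between 2 and 5 kb upstream of Speer4c, the H3K9me3 density was 1.04 and 2.10 in KO and 1.03 and 1.20 in WT. In the same stretch of Speer4d it was 17.7 and 18.4 in KO and 22.7 and 18.6 in WT, and at Speer4e it was 18.0 and 20.6 in KO and 21.0 and 19.96 in WT. Speer4c was below both other copies in 4 of 4 libraries. The stretch was not among the planned windows. The identity of 98.2% between Speer4c and Speer4d is that of their bodies, and the identity of this stretch was not measured. The share of unique positions was 20.4% in the window of Speer4c and 5.52% in its body.

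H3K27me3 was low to moderate. The mean density was 1.95 ± 0.648 at Speer4c, 1.82 ± 0.862 at Speer4d, 1.66 ± 0.749 at Speer4e, 1.12 ± 0.474 at Speer4a, 0.629 ± 0.0825 at Speer4b, 0.286 ± 0.148 at Speer2, 0.206 ± 0.163 at Speer4f1, and 0.148 ± 0.138 at Speer3 (SD, n = 4). Only the ranges of Speer4b and Speer2 did not overlap among neighbors in this order. The median of all protein-coding genes was 0.113 to 0.222 and the 99th percentile 9.72 to 13.1, so no member reached the level of the genes densest in this mark. WT replicate 2 had 23 fragments in the 8 windows together, and its values have wide counting error.
The highest mean of any bin of 500 bp was in front of Speer4a, and this stretch was chosen after its values were seen. Between 1.5 and 2.5 kb upstream of its start site, the H3K27me3 density was 5.52 (21 fragments) and 4.21 (3) in KO and 6.57 (19) and 14.97 (3) in WT. IgG had 0 fragments there in 4 libraries, and the 95% exact Poisson upper bounds were 13.6 to 23.1. In each library the H3K27me3 value lay below the IgG bound of the same genotype and replicate, so single libraries did not show an excess. Counts pooled over the libraries were not tested.

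IgG, which measures cleavage without a specific antibody, was itself high at the subgroup when all fragments were counted. The density was 4.86 and 5.96 in KO and 2.43 and 4.53 in WT at Speer4e. It was 5.24 and 5.78 in KO and 3.33 and 2.96 in WT at Speer4d. It was 3.75 and 5.79 in KO and 2.50 and 2.54 in WT at Speer4c. Both KO libraries were above both WT libraries at all 3 genes, which had 44 to 55 IgG fragments each over the 4 libraries.
The other members had 1 (Speer4f1) to 14 (Speer4a) IgG fragments in all. The median IgG density of protein-coding genes was 0.159 to 0.241, and the 99th percentile was 1.68 to 2.42. The lowest percentile of the subgroup among these genes was 99.002, at Speer4e. With all fragments, the same 3 genes were the highest members for H3K4me3, H3K9me3, H3K27me3, and IgG. With unique ends over the windows they were not, as Speer4c was below Speer4a for H3K9me3 (3.18 against 3.56) and below Speer4a and Speer4b for H3K27me3 (0.363 against 0.505 and 0.428, from 7, 20, and 26 fragments). These window values weigh the flanks most at Speer4c, where 0.263 of 3.01 kb of unique positions lie in the body, against 1.36 of 3.41 kb at Speer4a.
The high IgG level of the subgroup was not seen with unique ends either. It was 1.45 ± 1.74 (SD, n = 4) at Speer4e, 0.809 ± 1.62 at Speer4d, and 0.614 ± 1.23 at Speer4c, from 3, 1, and 2 fragments, and 0 to 1.04 at the other members, so a difference was not detectable at this depth.

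Whether each mark exceeded the IgG control was tested with limma-voom over all genes with at least 10 fragments in the 8 libraries and at least 10 IgG fragments in the 4 IgG libraries (6922 genes). Speer3 (7 IgG fragments) and Speer4f1 (1) did not reach this minimum, and 6 members were tested. The 3 comparisons share the IgG libraries.
H3K4me3 rose above IgG at 6 of 6 members, where 39.7% of the genes tested were called higher and 58.2% in either direction (adjusted p under 0.05). The log2 fold change was 3.87 ± 0.358 (SE) at Speer4c (limma adjusted p = 1.42e-05), which was rank 7 of 6922 genes. It was 3.47 ± 0.336 at Speer4d (limma adjusted p = 1.75e-05), 3.37 ± 0.484 at Speer4b (0.000161), 3.31 ± 0.339 at Speer4e (2.43e-05), 2.95 ± 0.464 at Speer4a (0.000245), and 2.90 ± 0.471 at Speer2 (0.000285). The median was 3.34 over these members and 0.584 over all genes tested.
Relative to IgG the members lay closer together than in density. The mean H3K4me3 density was 51.3 at Speer4c and 9.57 at Speer4b, and their log2 fold changes over IgG were 3.87 and 3.37, a difference that was not tested. For the 2 members without a test, the counts were read directly. At Speer4f1, IgG had 1 fragment in KO replicate 1 (0.249 per kb per 1000000, 95% exact Poisson interval 0.00631 to 1.39) and 0 in the other 3 libraries (upper bounds 1.25 to 1.56), while H3K4me3 was 7.30 to 9.80. At Speer3, the upper bounds for IgG were 1.52 to 2.93, and H3K4me3 was 7.09 to 9.39. These intervals cover counting error only.

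H3K9me3 rose above IgG at 4 of the 6 members tested, Speer4c, Speer4d, Speer4e, and Speer4a, and fell below it at Speer2. Of all genes tested, 6.46% were called higher, 64.7% lower, and 71.2% in either direction. The log2 fold change was 1.64 ± 0.318 (SE) at Speer4d (limma adjusted p = 0.00332), 1.63 ± 0.333 at Speer4e (0.00399), 1.54 ± 0.409 at Speer4c (0.0102), 1.35 ± 0.501 at Speer4a (0.0371), and -1.79 ± 0.631 at Speer2 (0.0307). It was -0.43 ± 0.583 at Speer4b (limma adjusted p = 0.506). The median over all genes tested was -1.96 and that over the 6 members 1.44. Between 36.2% and 41.2% of the H3K9me3 fragments were on chromosomes X and Y, against 11.7% to 13.3% for IgG. With library sizes over the autosomes alone, the log2 fold change was 2.15 at Speer4d, 2.13 at Speer4e, and 2.05 at Speer4c, and Speer2 lost its call (limma adjusted p = 0.109).
With the gene body alone, the log2 fold change of H3K9me3 over IgG was 0.41 at Speer4e, 0.29 at Speer4d, and 0.34 at Speer4c, and 0 of the 3 members tested were called. Without H3K9me3 WT replicate 2, which leaves 1 WT library, fewer members were called. The medians were then 1.44 over the members and -2.14 over all genes. Leaving out any 1 IgG library also left fewer calls among the members that still had enough IgG fragments, and among all genes. The medians were then 1.36 to 1.67 over the members tested and -2.03 to -1.86 over all genes.

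H3K27me3 was below IgG at 3 members, Speer4c, Speer4d, and Speer4e, where 51.7% of all genes tested were called lower, 18.2% higher, and 69.9% in either direction. The log2 fold change was -1.35 ± 0.465 (SE) at Speer4d (limma adjusted p = 0.00846), -1.31 ± 0.462 at Speer4e (0.0101), and -1.20 ± 0.484 at Speer4c (0.0236). At Speer2, Speer4b, and Speer4a it was -1.39, -0.58, and -0.07, without a call. All 6 were higher than the median of all genes tested, -1.55, which is a value relative to the library total. This order depended on the filter. Without the IgG minimum, the median was -0.73 over 19871 genes and -1.26 over the 8 members. In that fit 5381 genes and 4 members were called lower. With at least 30 fragments, the medians were -1.18 over all genes and -1.25 over the members. Without WT replicate 1 of H3K27me3, which leaves 1 WT library, the members lost their calls, and fewer genes were called overall in the fit. The medians were then -0.99 over the members and -1.07 over all genes. With every deposited row counted, 0 of 8 members were called, where 6173 of 18693 genes were in either direction. Without IgG WT replicate 1 or 2, calls were also lost among the members and among all genes. The medians were then -1.25 and -1.14 over the 4 members still tested and -1.57 and -1.52 over all genes.

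**Figure D3:**
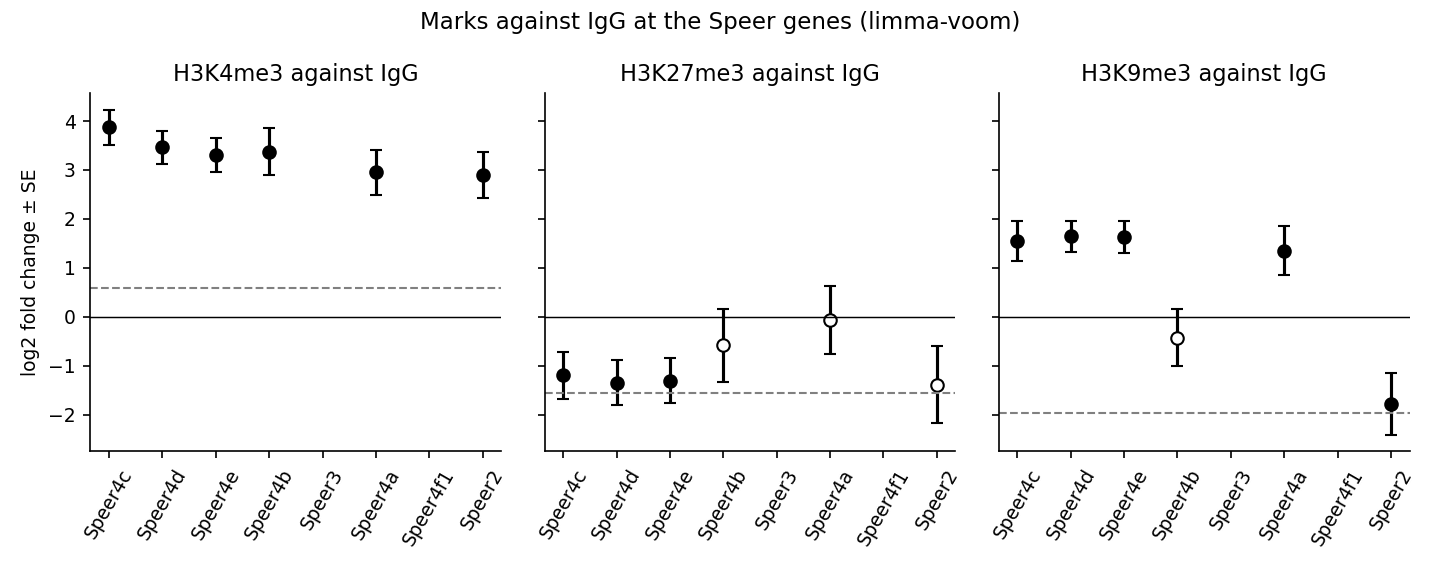
Log2 fold change of each mark against IgG (y axis, ± SE, limma-voom, 4 libraries of each target) at the Speer genes (x axis), with filled points for an adjusted p under 0.05 and open points otherwise. The dashed line is the median of all 6922 genes tested, and Speer3 and Speer4f1 are empty because they had too few IgG fragments. H3K4me3 lies between 2.90 and 3.87 at the 6 members, while H3K9me3 ranges from -1.79 at Speer2 to 1.64 at Speer4d.

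The comparison of KO with WT asks whether the loss of H2A.B changed the marks at these genes. No member was called for any target. For H3K4me3, 0 of 8 members were called by limma-voom, as were 0 of 20762 genes (0%), and 71 genes and 0 members had an unadjusted p under 0.05. The largest difference was at Speer4a, with a log2 of -0.35 ± 0.243 (SE, limma adjusted p = 1.0), lower in KO in both pairs (-0.13 and -0.52). The median over the 8 members was -0.15, and that of all genes was 0.07.
For H3K9me3, 0 of 8 members and 0 of 21532 genes (0%) were called, and 131 genes but 0 members had an unadjusted p under 0.05. The largest difference was at Speer3 (0.33 ± 0.610, limma adjusted p = 1.0), which had 23 to 38 fragments per library. At the subgroup it was between -0.17 and -0.19, with SEs of 0.109 to 0.149. Only 5.26% to 9.31% of the H3K9me3 fragments there had a unique end, so the values of its 3 genes are not separate measurements. The bodies and flanks of these 3 genes had 832 to 1309 H3K9me3 fragments per library.
For H3K27me3, 0 of 7 members and 0 of 17948 genes (0%) were called, and 39 genes but 0 members had an unadjusted p under 0.05. Speer3 had too few fragments for the test (7 in 4 libraries). The largest difference was at Speer4f1 (0.91 ± 1.10, limma adjusted p = 1.0), with KO counts of 16 and 4 and WT counts of 7 and 0.
For IgG, 0 of 6 members and 0 of 6922 genes (0%) were called, and 126 genes but 0 members had an unadjusted p under 0.05. The largest difference was at Speer2 (-1.68 ± 1.04, limma adjusted p = 0.997), with KO counts of 1 and 3 and WT counts of 3 and 4. At Speer4c, Speer4d, and Speer4e it was 0.78, 0.75, and 0.63 with SEs of 0.498 to 0.536, higher in KO in both pairs.
With the replicate number as a block, 0 members were again called for any target, but more genes were, 67 of 21532 for H3K9me3 (57 higher in KO), 82 of 6922 for IgG (67 lower), 1 of 20762 for H3K4me3, and 0 of 17948 for H3K27me3. The members with an unadjusted p under 0.05 in this fit were Speer4d (log2 -0.28) and Speer4a (-0.37) for H3K4me3 and Speer4e (-0.17) for H3K9me3, with limma adjusted p = 0.9998, 0.9998, and 0.692. Over all genes, 620 of 20762 had an unadjusted p under 0.05 for H3K4me3 and 1421 of 21532 for H3K9me3 in this fit. Without H3K9me3 KO replicate 2, which leaves 1 KO library, the log2 difference for H3K9me3 was -0.39 at Speer4c, -0.32 at Speer4e, and -0.29 at Speer4d.

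Libraries of the 2 genotypes did not overlap at some members. For IgG, both KO libraries were above both WT libraries at 3 of 6 members, where 17.6% of genes showed this, and below them at 1 (Speer2), where 12.8% did. For H3K4me3 this was 0 of 8 above (14.9% of genes) and 1 of 8 below (Speer4a, 7.4%). For H3K27me3 it was 1 of 7 above (Speer4f1, 9.56%) and 1 below (Speer4a, 8.41%), and for H3K9me3 0 of 8 above (7.12%) and 1 below (Speer4d, 8.7%). The 3 members with higher IgG in KO were Speer4c, Speer4d, and Speer4e. Only 1.89% to 5.45% of their IgG fragments had a unique end, so they are not 3 separate observations to set against the share of genes.
The difference between genotypes in a mark, beyond that in IgG, was also tested. It was called at 0 of 6 members and 0 of 6922 genes (0%) for each of the 3 marks, and 145, 35, and 41 genes and 0 members had an unadjusted p under 0.05 for H3K4me3, H3K27me3, and H3K9me3. The largest value was at Speer2 each time, with 1.34 ± 0.941 for H3K4me3, 1.36 ± 1.59 for H3K27me3, and 1.45 ± 1.26 for H3K9me3 (log2 ± SE, limma adjusted p = 1.0). These 3 values share the 11 IgG fragments of Speer2.
In simulated libraries of the same depth, the KO against WT test for H3K4me3 found 14.5% of 200 genes changed by 1 on the log2 scale and 93% of those changed by 2. The shares were 4.5% and 80.5% for H3K9me3 and 2% and 63.5% for H3K27me3. The simulated test of the difference beyond IgG found few. It found 0% and 26.9% for H3K4me3 (of 184 and 175 changed genes that passed the filter). For H3K9me3 it found 0% and 11.5% (of 98 and 96), and for H3K27me3 1.55% and 37.6% (of 129 and 117). Each gene was simulated with 1 mean level over the mark and IgG libraries, unlike the real data, so these shares do not describe the real test. Its lack of calls therefore says little about changes of these sizes. The simulation gave all genes the same fixed spread between libraries and no shift shared by pair or date. At Speer4c the real H3K4me3 density was 61.0 and 38.2 in the KO libraries. The shares of the KO against WT test may therefore overstate its power. The changed genes were drawn from better-covered genes. Speer2, Speer4f1, and Speer3 had too few H3K27me3 fragments for that draw (46, 27, and 7). Speer4a, Speer2, and Speer4b had too few IgG fragments (14, 11, and 10) for the draw of the difference beyond IgG. The shares do not describe these members there. In the KO against WT test, all differences of the 3 marks at the members were smaller than 1 on the log2 scale, so changes of that size may have been missed.

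**Figure D4:**
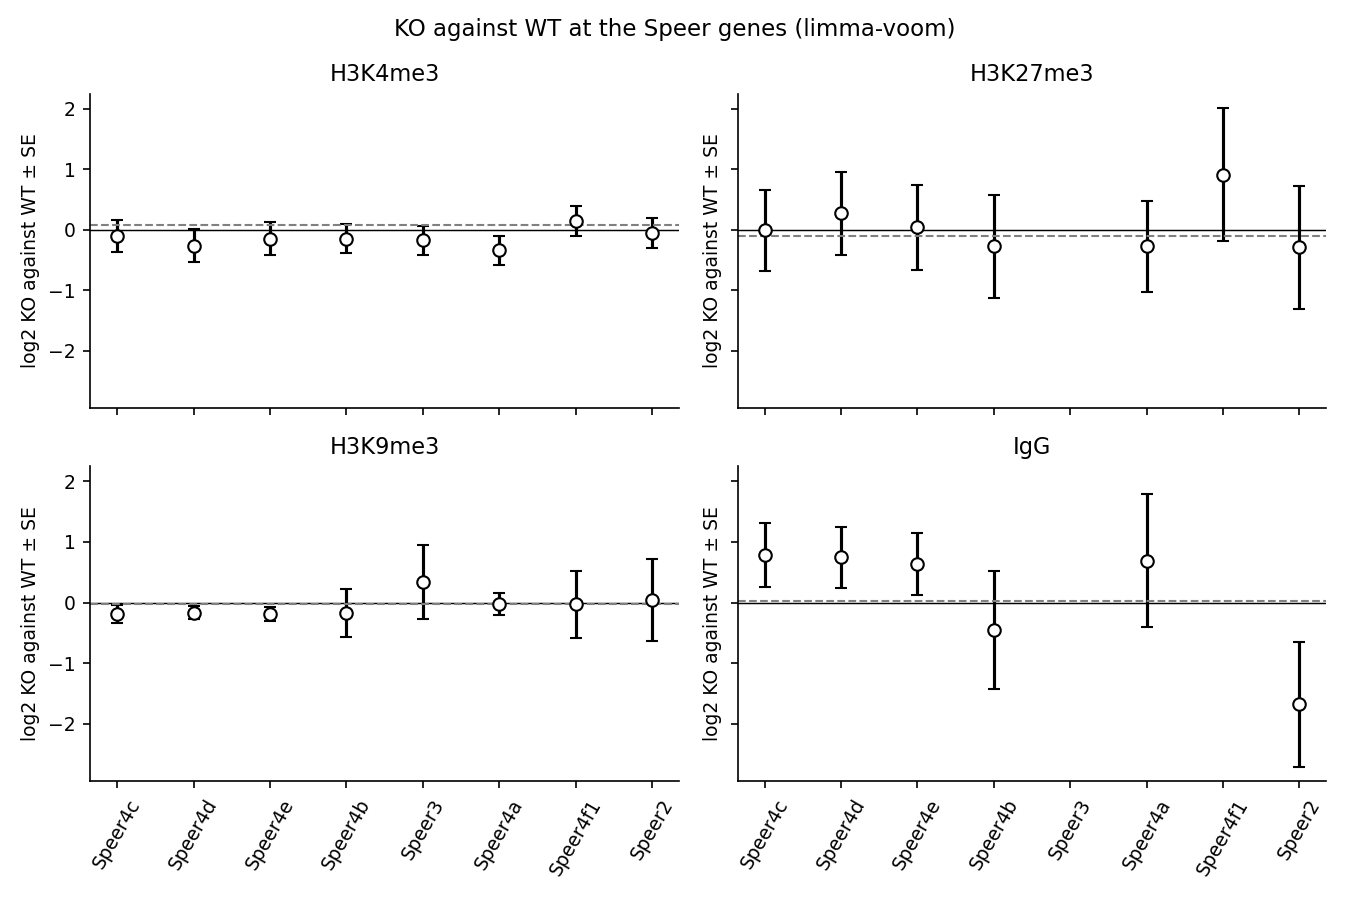
Log2 difference between KO and WT (y axis, ± SE, limma-voom, 2 libraries of each genotype) at the Speer genes (x axis) for each target. The dashed line is the median of all genes tested, open points mark that no member was called, and members with too few fragments are empty. The intervals are narrowest for H3K9me3 at Speer4c, Speer4d, and Speer4e and widest for IgG and H3K27me3, where Speer2 and Speer4f1 have the largest values.

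Summed over the 8 windows, H3K4me3 was 3176 and 2058 fragments per 1000000 in KO and 3129 and 2634 in WT. On the log2 scale KO minus WT was -0.17, within the SD between replicates of 0.337, and it was 0.02 in pair 1 and -0.36 in pair 2. H3K9me3 was 539 and 675 in KO and 652 and 680 in WT, a difference of -0.14 (SD 0.165). H3K27me3 was 104 and 148 in KO and 112 and 115 in WT, a difference of 0.12 (SD 0.254). None of the 3 marks differed by more than the SD.
The IgG sum was 259 and 317 in KO and 179 and 207 in WT. Its difference of 0.56 was larger than the SD of 0.18, with 0.52 in pair 1 and 0.61 in pair 2. It rests on 70 and 63 fragments in KO and 29 and 33 in WT. With every deposited row it was 0.25, and with the fragments that have a unique end it was -0.03. An exact permutation test with 2 libraries against 2 cannot give a p below 0.333, and none was run on these sums.

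The lists repeat many fragments with identical coordinates, and the repeats were unevenly spread. The H3K4me3 lists held 1.42 to 3.06 rows per distinct fragment in the 8 windows, but 1.98 to 6.01 over the whole library. The windows had fewer rows per distinct fragment than the library in 16 of 16 libraries. Among the members, H3K4me3 had 1.62 to 1.67 rows per distinct fragment at the subgroup, 1.86 at Speer4a, 2.32 to 2.65 at Speer4b and Speer4f1, 3.15 at Speer2, and 3.42 at Speer3.
Counted as rows per 1000000 rows of the library, the H3K4me3 sum was 1682 and 1473 in KO and 1596 and 1662 in WT. The highest library was 1.14 times the lowest, where it was 1.54 times with distinct fragments. KO replicate 2, the library with the lowest distinct density at the subgroup, also had the fewest rows per fragment of the H3K4me3 libraries (1.98), and the part of this in its low density was not tested.
Fragments at different copies can also have the same sequence. At Speer4c, Speer4d, and Speer4e, 9.37% to 16.2% of the H3K4me3 fragments had a reference sequence equal over its whole length to that of another fragment of the members in the same library, against 0.748% to 1.98% at the other 5. The share at the subgroup was 16.2% in both replicate 1 libraries, where the library had 4.33 and 6.01 rows per fragment, and 9.37% and 11.3% in the replicate 2 libraries, which had 1.98 and 2.64. For H3K9me3 the share was 1.80% to 4.60%. Whether such fragments are 1 molecule or several could not be told apart, because the lists carry no molecular identifiers.

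**Figure D5:**
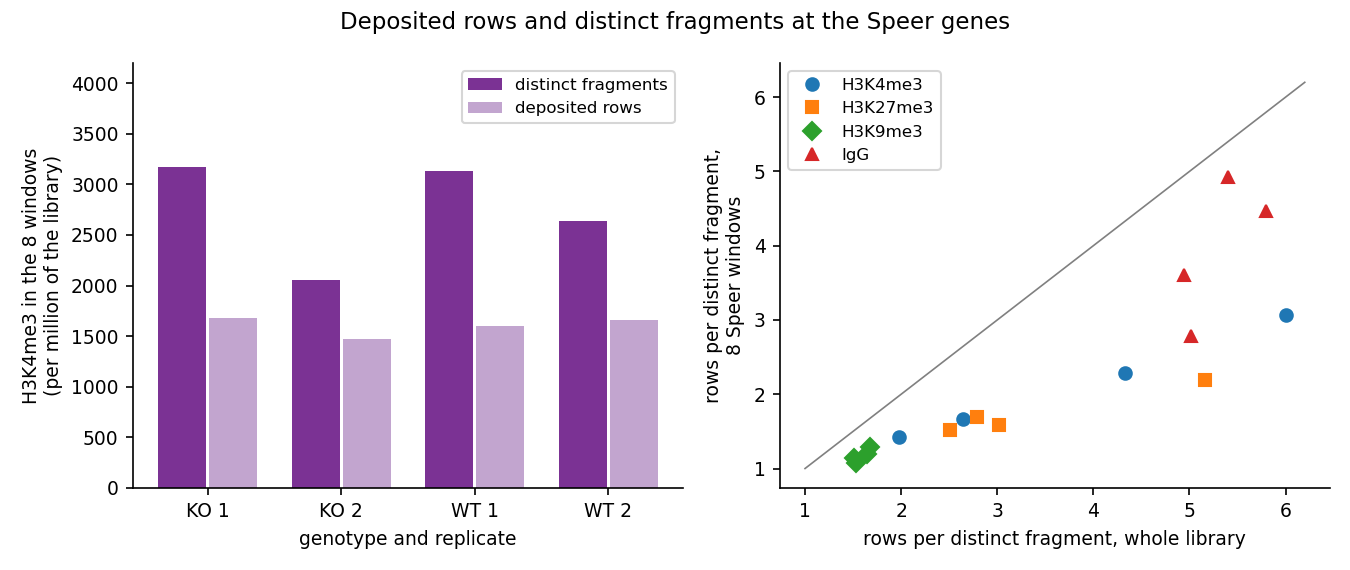
Left, H3K4me3 in the 8 Speer windows per 1000000 distinct fragments or rows of the library (y axis, bars from 0) for each library (x axis), counted as distinct fragments or as deposited rows. Right, rows per distinct fragment in the 8 windows (y axis) against the whole library (x axis), with 1 point per library and a grey line of equality. Rows varied between 1473 and 1682 per 1000000 where distinct fragments varied between 2058 and 3176, and all 16 points lie under the line.

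For H3K4me3, fragment lengths at the family shifted as in the whole library. For H3K4me3, the windows had 0.453 and 0.555 small fragments (up to 120 bp) per large one (at least 150 bp) in KO and 0.268 and 0.309 in WT. On the log2 scale KO was higher by 0.80, above the SD between replicates of 0.179, with 0.76 in pair 1 and 0.84 in pair 2. Over the whole H3K4me3 libraries the difference was 0.88 (0.79 and 0.97), in the same direction in both pairs.
For H3K9me3 the difference was 0.59 in the windows and 0.55 in the library, within SDs of 1.02 and 0.793, which do not use the pairs. It was higher in KO in both pairs, by 0.72 and 0.47 in the windows and by 0.57 and 0.53 in the library. For H3K27me3 it was 0.28 in the windows (SD 1.44), with opposite signs in the pairs (1.19 and -0.62), and 0.69 in the library (SD 1.09), with 0.68 and 0.71 in the pairs. For IgG it was -0.61 in the windows, beyond the SD of 0.512, and 0.48 in the library, but the windows held only 7 to 27 large IgG fragments per library.

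Genes with the most similar levels over the 16 libraries were searched among 20988 protein-coding genes without a Speer symbol. Genes whose windows overlap that of a Speer gene were left out. The highest Pearson correlations with the log2 family sum were 0.987 for 4930572O03Rik, 0.984 for Gm21149, and 0.984 for Gm21083, where the median of all genes searched was 0.223. The points share libraries and depth, and the values are a description. The median position in the body of Speer4c has 10 copies in the genome. Whether the 3 genes hold such copies, and so share reads with the members, was not tested. All 3 lie on chromosome 5 near Speer4d and Speer4c, at 15652286 to 15657059, 15471703 to 15476523, and 15577333 to 15582078. Their mean densities were 46.7 to 47.9 for H3K4me3, 11.95 to 18.0 for H3K9me3, 1.83 to 3.23 for H3K27me3, and 4.86 to 5.65 for IgG. Among the members, the correlation with the sum of the other 7 was 0.671 (Speer2) to 0.988 (Speer4c).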

How the data were processed

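The authors sequenced AutoCUT&RUN libraries of sorted haploid spermatids and mapped them with Bowtie2 to mm10 (version 2.3.4.3 in the submitters' processing notes, while the methods name another version). They deposited 1 fragment list per library, with chromosome, start, end, and length. The lists are unscaled, were not pooled, and still hold fragments with identical coordinates, although the methods state that duplicates were removed. From these deposited lists, distinct fragments on the 19 autosomes, X, and Y were counted by midpoint over GENCODE vM21 genes extended by 5 kb. Fragment lists of 159611 to 6746382 distinct fragments set the counting error.
Groups were compared with limma 3.58.1 (voom, R 4.3.3, Benjamini-Hochberg adjustment over all genes tested) for genes with at least 10 fragments in the libraries of a comparison. For a mark against IgG, at least 10 IgG fragments were also required. This minimum was added after simulated data without it gave false calls, and it departs from the planned filter. Sums over the family were compared as log2 values, with 0.5 fragments added, against the SD between replicates. Intervals are 95% exact Poisson intervals and cover counting error only. Uniqueness of 25-base sequences was counted over the mm10 genome.
The methods state that 2 sibling pairs were used, and in the sample titles each replicate number goes with 1 date code, so pair and date cannot be told apart. Over genes with at least 10 fragments, deviations of same-numbered KO and WT libraries correlated with r = 0.384 for H3K4me3, 0.561 for H3K27me3, 0.532 for H3K9me3, and 0.138 for IgG. The comparisons were made without the pair as a block, and the block was an alternative, as were every deposited row, other windows, library sizes, filters, and fragments with a unique end. All 8 members were named, as were the 3 genes with the highest correlation to their sum. The members, gene lists, and tests were chosen with earlier results of these data known.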

Additional observations from a re-analysis of the deposited data

How the results depend on the processing

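With every deposited row, the members called against IgG were 0 for H3K27me3 and 3 for H3K9me3. Of all 18693 genes tested there, 6173 and 6371 were called in either direction. With the gene body alone, 3 of 3 tested were called for H3K4me3 and 0 for H3K9me3, where 2236 and 3593 of 5184 genes were. Within 1 kb of the start site, where 2 members were tested, 2 were called for H3K4me3 and 0 for each of H3K27me3 and H3K9me3. Of the 85 genes tested there, 42, 67, and 59 were called. Leaving out 1 library left every tested member called for H3K4me3 and fewer called for the other 2 marks in some fits. Only 3 to 5 members were tested where an IgG library was left out. The median over the members tested was then 3.16 to 3.51 for H3K4me3, -1.38 to -0.93 for H3K27me3, and 1.36 to 1.67 for H3K9me3. Over all genes it was 0.18 to 0.62, -1.67 to -1.07, and -2.18 to -1.71. Without the IgG minimum, an alternative added after seeing the data, 8, 4, and 5 members were called. Over all genes in that fit, 12973 of 21267, 10548 of 19871, and 14057 of 21734 were called. No alternative called a member between KO and WT. Over all genes, leaving out 1 library gave 7 to 77 calls between KO and WT for H3K9me3 (77 without KO replicate 1), 0 to 11 for H3K4me3 (11 without WT replicate 2), 0 to 7 for H3K27me3 (7 without WT replicate 1), and 0 for IgG.

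Direction turned for Speer3 H3K9me3 between KO and WT with every deposited row (-0.11), for Speer2 H3K9me3 against IgG with quantile normalization (0.34), and for the Speer2 difference in H3K27me3 over IgG, which was -0.047 to 1.77 when 1 library was left out. With the replicate block, 6, 2, and 5 members were called against IgG for H3K4me3, H3K27me3, and H3K9me3. Of all 6922 genes tested, 4334, 4078, and 5904 were called in these fits. The lost call was Speer4c for H3K27me3 (-0.96, limma adjusted p = 0.0819), and the block changed no other call of a member.

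For the family sums of KO minus WT, fragments with a unique end gave 0.63 for H3K27me3, 0.19 for H3K9me3, and -0.032 for IgG, and IgG was 0.25 with every row and 1.18 within 1 kb of the start. Leaving out 1 library gave -0.48 to 0.15 for H3K4me3, -0.14 to 0.37 for H3K27me3, -0.31 to 0.02 for H3K9me3, and 0.42 to 0.71 for IgG. The family sum over IgG was 3.51 for H3K4me3 (3.22 with every row, 4.07 in the body, 4.06 near the start, 3.38 to 3.66 without 1 library). It was -0.99 for H3K27me3 (-1.43, -1.46, and -1.22, and -1.12 to -0.85). It was 1.42 for H3K9me3 (0.22 in the body, 0.33 near the start, 1.92 over autosomes, 1.12 with a unique end, and 1.29 to 1.56). The ratio of small to large fragments, KO minus WT, was 1.04 with every row and 0.62 with a unique end for H3K4me3, and -1.20 near the start and -2.46 with a unique end for IgG. Without 1 library it was 0.65 to 0.95 for H3K4me3, -1.08 to 1.65 for H3K27me3, -0.19 to 1.37 for H3K9me3, and -1.12 to -0.10 for IgG. With each fragment sequence counted once per library, also added after seeing the data, no family sum moved by more than its SD. The cause of these shifts was not tested. Depth limits IgG and H3K27me3 most, and sequence shared between copies limits every value of Speer4c, Speer4d, and Speer4e.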

Other observations

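Another 6 genes with a Speer symbol were counted. H3K4me3 rose above IgG at 6 of 6, where 39.7% of the genes tested were called higher. The log2 fold change was 3.35 ± 0.446 (SE) at Speer1 (limma adjusted p = 0.000119), 2.92 ± 0.439 at Speer4f2 (0.000201), 2.86 ± 0.421 at Speer5-ps1 (0.000175), 2.38 ± 0.271 at Speer4cos (5.92e-05), 2.18 ± 0.507 at Speer9-ps1 (0.00229), and 1.38 ± 0.343 at Speer6-ps1 (0.00335). Speer1, which is protein coding and lies at lower coordinates than Speer3 on chromosome 5, had an H3K4me3 density of 15.8 ± 3.81 (SD, n = 4), and 2.14% of its fragments had a unique end.

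For H3K9me3, Speer4cos, which overlaps Speer4c, rose above IgG (2.49 ± 0.228, limma adjusted p = 0.000341), and Speer1 fell below it (-1.58 ± 0.454, limma adjusted p = 0.0139). H3K27me3 was below IgG at 4 of the 6, Speer1, Speer4cos, Speer4f2, and Speer9-ps1, where 51.7% of all genes tested were called lower. Without H3K27me3 WT replicate 1, which leaves 1 WT library, these calls were lost, and fewer genes were called over the whole fit. With every deposited row or with quantile normalization 1 of 6 was called, where 6173 of 18693 and 2572 of 6922 genes were in either direction. None of the 6 was called between KO and WT for any of the 4 targets.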
